A study of Homo sapiens with 24 samples.

Results

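Oncogene-induced senescence by RAS was followed here in IMR90 cells that carried a hairpin against HMGA1, by setting 6 RIS+shHMGA1 samples against 6 growing shHMGA1 samples. The members were the 12 of the 24 RNA-seq samples of the series whose titles name the hairpin, and all genes were described. IMR90 cells are human diploid fibroblasts from lung. In every sample of both groups they carried ER:HRAS(G12V), an oncogenic HRAS fused to an oestrogen receptor domain that becomes active when 4-hydroxytamoxifen (4OHT) is added, together with the retroviral MSCV miR30 shHMGA1 construct. The shHMGA1 samples were growing cells with no agent (the titles call them Growing_shHMGA1). The RIS+shHMGA1 samples (RIS_shHMGA1) had been given 4OHT for 6 days. The other 12 samples, growing and RIS, carried a control vector in place of the hairpin and are used only where the hairpin cells are set beside them. The cells were between passages 23 and 28, the hairpin was a single construct, and the agent and the induced oncogene differ together between the groups, so that an effect of 4OHT itself and an effect of HRAS cannot be told apart in these samples.

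RAS-induced senescence (RIS) is a lasting exit from the cell cycle. Sustained RAS signalling raises the inhibitors of cyclin-dependent kinases, the retinoblastoma proteins then hold E2F target genes silent, and the DREAM complex does the same for genes of mitosis. Senescent fibroblasts secrete cytokines, chemokines and proteases, together called the senescence-associated secretory phenotype (SASP), with IL1A at the cell surface acting upstream through NF-kappaB and C/EBP-beta. HMGA1 is an architectural chromatin protein that binds AT-rich DNA and takes part in building the dense heterochromatin foci of RAS-senescent fibroblasts. The comparison asks what RAS did to gene expression when HMGA1 was held low.

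Values are CPM, gene counts scaled to a common library total after TMM normalization. Differences are log2 fold changes of RIS+shHMGA1 over shHMGA1 with their standard errors. They come from edgeR (quasi-likelihood), with p-values adjusted by Benjamini and Hochberg's method over the 12936 genes tested. A gene was called where the adjusted p was under 0.01 and the log2 fold change was beyond 0.58 in size. A gene near absent in 1 group passed the filter on low counts through the other group alone. It could be called in 1 direction only, and its place in a list count is no result of its own. The 12 hairpin samples held between 8698070 and 15648595 gene counts, so that a single count was worth 0.0639 to 0.115 CPM. The fibroblast marker VIM, an intermediate filament protein, had 3965, 4344 and 4556 CPM in shHMGA1 samples and 3015, 3320.3 and 3969 CPM in RIS+shHMGA1 samples (lowest, median and highest of the 6 samples, with shHMGA1 first, the order used throughout). VIM was not called, whereas 9 of the 15 listed fibroblast markers were called lower and 2 higher. PDGFRB, for example, went from between 91.6 and 128 CPM to between 16.7 and 22.2 CPM. The epithelial marker CDH1 did not exceed 0.119 CPM, the endothelial marker CDH5 did not exceed 0.176 CPM, and the leukocyte marker PTPRC did not exceed 0.654 CPM in any of the 12 samples. Other listed markers of those types were present. Epithelial KRT18 stood at 25.9 to 31.1 CPM in shHMGA1 and 33.4 to 38.6 CPM in RIS+shHMGA1. Endothelial TEK stood at 67.8 to 119 and 12.8 to 21.4 CPM, and leukocyte CD68 at 40.9 to 79.5 and 54.1 to 70.0 CPM. In these bulk samples fewer cells of a type and less RNA per cell cannot be told apart. The first principal component held 82.0% of the variance and separated the groups, from −66.3 to −48.9 in shHMGA1 and from 41.0 to 70.9 in RIS+shHMGA1. On the second, with 5.1%, RIS+shHMGA1 replicates 5 and 6 stood at −28.9 and −25.7 while the other 4 samples of that group lay between 8.96 and 13.3. In shHMGA1, replicates 5 and 6 were likewise the lowest, at −7.35 and −15.3 against 1.77 to 17.6. No pair of samples agreed within sampling noise.

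HMGA1, the gene the hairpin targets, was low in all 12 samples. Scaled over all 24 samples, it had 639, 683 and 861 CPM in growing cells and 641, 728 and 786 CPM in RIS, against 54.4, 116 and 143 CPM in shHMGA1 and 60.0, 207 and 262 CPM in RIS+shHMGA1. The hairpin samples did not overlap with the vector samples in either state. Within the hairpin cells, scaled over the 12 samples, HMGA1 was at 129.6, 139, 137, 96.7, 56.3 and 52.3 CPM in shHMGA1 replicates 1 to 6 and at 247, 224, 205, 185, 59.0 and 72.8 CPM in RIS+shHMGA1 replicates 1 to 6. Replicates 5 and 6 were the lowest in both groups, and the groups overlapped. The difference was 0.70 ± 0.32 on the log2 scale (adjusted p = 0.062), and it was not called. With replicates 5 and 6 left out it was 0.80 (adjusted p = 8.07e-06) and was called. Its relative HMGA2 had 574, 606 and 721 CPM in shHMGA1 samples and 492, 581 and 769 CPM in RIS+shHMGA1 samples (−0.01 ± 0.12, adjusted p = 0.94), with overlapping groups. HRAS, whose counts may include reads of the transgene, went from 2013, 2655 and 3381 CPM to 1521, 1709 and 1882 CPM (−0.62 ± 0.13, adjusted p = 2.9e-04), and the 2 groups did not overlap.

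Expression of a large part of the transcriptome differed between RIS+shHMGA1 and shHMGA1. Of the 12936 genes tested, 5762 were called (44.5%), of which 2794 were higher (21.6% of all tested) and 2968 lower (22.9%). The shares of 21.6% and 22.9% are the background for each count of list members below. The groups did not overlap for 5657 genes (43.7%), among them 4761 of the called genes, and 5566 called genes kept 1 direction in every same-numbered pair of samples. A further 1992 genes passed the adjusted p but not the fold. The median of the called genes was 1.05 in size, and the median over all tested genes was −0.05. By more than 4-fold, 553 genes fell and 299 rose, whereas by more than 16-fold 77 rose and 48 fell. Scaling by total count alone moved the median of all genes to −0.45 and called 6887 genes, 20.4% of them higher in place of 48.5%. Directions are therefore given relative to TMM scaling, and a list whose balance turns under total-count scaling is named as such. Of the called genes, 5266 were protein-coding, out of 11812 tested, and 245 were long non-coding, out of 489.

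**Figure D1:**
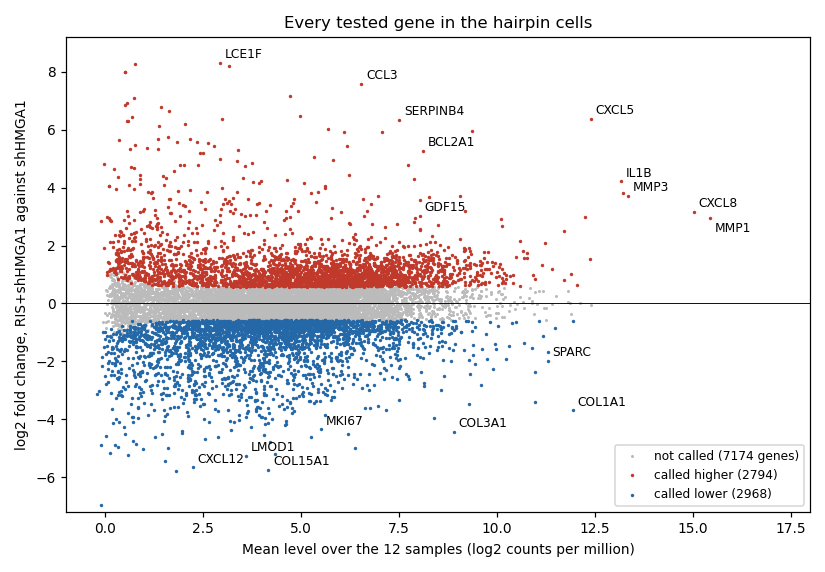
Log2 fold change of RIS+shHMGA1 against shHMGA1 (vertical axis) against the mean level over the 12 samples in log2 CPM (horizontal axis) for the 12936 tested genes, with called genes in red (2794 higher) and blue (2968 lower) and the other 7174 in grey. MMP1, CXCL8, IL1B, MMP3 and CXCL5 stand out as abundant genes that rose, and COL1A1 and SPARC as abundant genes that fell.

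The largest rises, among genes with a mean log2 CPM of at least 2, belonged to chemokines, cytokines and genes of the outer epidermis. SERPINB3, a serpin of squamous epithelium, had 0, 0 and 0.176 CPM in shHMGA1 samples and 6.63, 20.1 and 28.1 CPM in RIS+shHMGA1 samples. Its neighbour SERPINB4 had 0.419, 4.99 and 8.74 CPM in shHMGA1 samples and 195, 387 and 494 CPM in RIS+shHMGA1 samples (6.34 ± 0.48, adjusted p = 2.1e-09). LCE1F, a late cornified envelope protein of the skin barrier, went from 0, 0.0298 and 0.0857 CPM to 13.1, 14.1 and 19.7 CPM, and LCE2C from 0.0597, 0.162 and 0.428 CPM to 8.29, 16.8 and 21.4 CPM. For SERPINB3, LCE1F and LCE2C every shHMGA1 sample was under 0.5 CPM and every RIS+shHMGA1 sample over 5 CPM. PI3, the elastase inhibitor elafin, went from 0.0699, 0.705 and 1.63 CPM to 27.1, 63.1 and 98.0 CPM (6.49 ± 0.39, adjusted p = 1.2e-10). IL36RN, the antagonist of the IL-36 receptor, went from 0.0699, 0.404 and 0.6 CPM to 13.9, 60.1 and 88.3 CPM. TNFSF15, a TNF family ligand, rose 60.8-fold, from 1.47, 2.47 and 3.09 CPM to 92.7, 135 and 181 CPM (5.92 ± 0.19, adjusted p = 7.3e-14). CCDC30, a coiled-coil gene, differed by 6.21. All of these were separate between the groups in every sample.

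Switches between near absence and presence were few. Under 0.5 CPM in all 6 shHMGA1 samples and over 5 CPM in all 6 RIS+shHMGA1 samples stood 10 genes, among them OCA2, a melanosome transporter (0, 0.263 and 0.428 CPM to 9.42, 12.6 and 15.1 CPM), and BEX1 (0.0801, 0.321 and 0.419 CPM to 7.70, 9.75 and 16.3 CPM). In the other direction, 9 genes were over 2 CPM in all shHMGA1 samples and under 0.5 CPM in all RIS+shHMGA1 samples. The genes highest in shHMGA1 among those under 0.5 CPM in all RIS+shHMGA1 samples were led by CXCL12. This chemokine, which retains stem and immune cells in stroma, went from 6.30, 7.08 and 12.4 CPM to 0, 0.0934 and 0.395 CPM. The oxytocin receptor OXTR went from 2.56, 4.93 and 7.34 CPM to 0, 0.0878 and 0.288 CPM, NEURL1B from 4.12, 6.78 and 7.61 CPM to 0, 0.0891 and 0.197 CPM, GALNT15 from 1.97, 5.51 and 8.89 CPM to 0, 0.0948 and 0.359 CPM and the fatty acid elongase ELOVL2 from 2.66, 4.66 and 5.37 CPM to 0, 0.186 and 0.478 CPM. MMP9, a gelatinase, had no count in any shHMGA1 sample and 1.18, 2.64 and 4.27 CPM in RIS+shHMGA1, at least 54.4-fold higher against a floor of 3 counts over the group.

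The largest falls were in matrix, muscle and cell cycle genes. COL15A1, a basement membrane collagen, went from 22.7, 29.5 and 51.4 CPM to 0.12, 0.468 and 1.58 CPM (−5.74 ± 0.34, adjusted p = 1.0e-10). PCDH18, a protocadherin, fell by a similar amount, from 94.9, 158 and 224 CPM to 2.79, 5.22 and 7.11 CPM (−4.99 ± 0.28, adjusted p = 4.0e-11). The muscarinic receptor CHRM2 differed by −5.19, the smooth muscle leiomodin LMOD1 by −5.27 and LMO7, a nuclear membrane and adhesion protein, by −4.50, from 119, 143 and 153 CPM to 4.19, 5.53 and 8.69 CPM. TNFSF4, the OX40 ligand, went from 50.05, 71.2 and 87.1 CPM to 1.72, 2.57 and 4.32 CPM (−4.62 ± 0.20, adjusted p = 1.7e-12), opposite to TNFSF15 of the same family. No sample of one group reached the range of the other for any of these.

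The secretory genes began with the IL1 axis. IL1A, the alarmin that acts upstream of the SASP, went from 29.7, 46.2 and 56.0 CPM to 474, 537 and 703 CPM (3.67 ± 0.15, adjusted p = 8.8e-13). IL1B, its secreted relative, was the more abundant, with 608, 888 and 1384 CPM in shHMGA1 samples and 15318, 17775 and 18950.5 CPM in RIS+shHMGA1 samples, an 18.6-fold rise (4.22 ± 0.19, adjusted p = 2.8e-12). Both were separate in all samples. Of the 14 tested genes of the axis 7 rose (50%) and 3 fell (21.4%), with a median of 0.63. Over all tested genes 21.6% rose and 22.9% fell, so that the share of the axis that fell was near background. The antagonist IL1RN rose too, by 4.64, and so did the alarmin IL33, by 4.99, and CASP4, the caspase that senses cytosolic lipopolysaccharide, by 0.77. Those that fell were CASP1, the IL1B-processing caspase, and the receptor chains IL1RAP and IL1RL1, of which the last binds IL33. IL1RN, at most 0.176 CPM in shHMGA1, and IL33, at most 1.33 CPM, passed the filter on low counts through RIS+shHMGA1 alone. A call in the other direction was not possible for them.

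Chemokines had the highest median of the lists, 2.92, against −0.05 over all genes. Of the 14 tested 9 rose (64.3%) and 1, CXCL12, fell (7.14%), against 21.6% and 22.9% over all tested genes. CXCL8 and its neighbours on chromosome 4 draw neutrophils through CXCR2. CXCL5 went from 34.6, 138 and 217 CPM to 6252, 11067 and 14848 CPM, a rise of 83.2-fold (6.38 ± 0.48, adjusted p = 2.1e-09). CXCL3 went from 9.44, 20.4 and 34.0 CPM to 872, 1240.3 and 1911 CPM (5.97 ± 0.33, adjusted p = 3.9e-11), and CXCL1 differed by 2.67 (from 159, 346 and 405 CPM to 1347, 2077 and 2562 CPM). CXCL8 already stood at 5430.4, 6294 and 9499.9 CPM in growing hairpin cells and reached 37436, 65216 and 77904 CPM, 8.99-fold higher (3.17 ± 0.21, adjusted p = 4.5e-10). Among the CC chemokines, CCL3 went from 0.537, 0.97 and 1.46 CPM to 84.7, 192 and 290.1 CPM (7.58 ± 0.33, adjusted p = 1.6e-12), CCL20, the ligand of CCR6, from 0.561, 1.59 and 2.12 CPM to 88.6, 101 and 119.6 CPM (6.03 ± 0.19, adjusted p = 5.7e-14), and CCL7 differed by 6.31. The chemokines named here did not overlap between the groups, and 7 of the 21 listed chemokines were under the filter on low counts. CCL7, at most 0.0857 CPM in shHMGA1, passed that filter through RIS+shHMGA1 alone, and CXCL12 through shHMGA1 alone. Each of the 2 could be called in 1 direction only.

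The start regions of chemokine genes are shown because they share a letter pattern that few others hold. RefSeq gives, for 10177 of the tested genes, the 250 bases before and 50 after the start (GRCh38.p14, whereas the counts were made on hg19). The NF-kappaB pattern GGANTTTCC, searched on both strands, was in 8 of the 12 chemokine regions found (66.7%) and in 171 of all 10177 (1.68%). The 3 neighbours CXCL5 (chr4:73998628-73998927), CXCL3 (chr4:74038640-74038939) and CXCL2 (chr4:74099146-74099445), all on the minus strand, are printed 5′ to 3′ along the gene with the match in capitals. It begins 90 bases before the start in CXCL5, 78 in CXCL3 and 77 in CXCL2. A match is a string of letters and no evidence that a factor bound.
CXCL5: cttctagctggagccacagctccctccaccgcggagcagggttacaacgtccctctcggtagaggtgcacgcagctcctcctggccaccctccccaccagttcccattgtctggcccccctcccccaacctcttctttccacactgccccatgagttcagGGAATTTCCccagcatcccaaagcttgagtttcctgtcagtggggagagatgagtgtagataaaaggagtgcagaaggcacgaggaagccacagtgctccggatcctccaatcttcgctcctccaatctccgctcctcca
CXCL3: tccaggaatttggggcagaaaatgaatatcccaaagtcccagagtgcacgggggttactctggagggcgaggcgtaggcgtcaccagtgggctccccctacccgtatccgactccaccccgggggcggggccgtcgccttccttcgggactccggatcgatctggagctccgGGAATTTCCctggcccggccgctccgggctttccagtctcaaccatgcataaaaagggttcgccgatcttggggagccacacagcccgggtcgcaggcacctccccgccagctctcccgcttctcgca
CXCL2: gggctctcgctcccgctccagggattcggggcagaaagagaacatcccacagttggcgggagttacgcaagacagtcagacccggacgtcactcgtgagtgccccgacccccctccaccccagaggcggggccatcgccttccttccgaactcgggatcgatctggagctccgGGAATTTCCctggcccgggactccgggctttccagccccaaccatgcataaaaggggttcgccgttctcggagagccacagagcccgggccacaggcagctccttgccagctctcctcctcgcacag

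Of the 13 tested cytokines 8 rose (61.5%) and 3 fell (23.1%), with a median of 1.30. The share that fell was near the 22.9% over all tested genes, where 21.6% rose. IL6, the best-known SASP cytokine, went from 645, 851 and 1208 CPM to 3306, 3836 and 4657 CPM (2.09 ± 0.15, adjusted p = 1.4e-09), and its relative IL11 differed by 1.30. The colony-stimulating factors rose more: CSF3 went from 7.22, 14.3 and 23.1 CPM to 367, 399.8 and 479 CPM (4.80 ± 0.21, adjusted p = 1.8e-12) and CSF2 from 57.4, 98.5 and 142 CPM to 435, 669 and 776 CPM (2.70 ± 0.20, adjusted p = 1.9e-09). The growth factor CSF1 of the macrophage lineage went the other way and was called lower, as were IL15 and IL32. Every sample of IL6, CSF2 and CSF3 lay beyond the other group's range.

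Proteases and their inhibitors moved both ways, 12 of 25 up (48%) and 9 down (36%), against 21.6% and 22.9% over all tested genes. MMP1, the interstitial collagenase, was the most abundant gene of both groups, with 7986, 9095 and 13879.5 CPM in shHMGA1 samples and 50346, 88852 and 99305 CPM in RIS+shHMGA1 samples, an increase of 7.77-fold (2.96 ± 0.21, adjusted p = 1.3e-09). The stromelysin MMP3 went from 987, 1370.4 and 2105 CPM to 17232, 19433 and 21795 CPM (3.72 ± 0.19, adjusted p = 1.4e-11) and SERPINB2, an inhibitor of plasminogen activators, from 912, 1347 and 1455 CPM to 14730.0, 18295 and 19705 CPM (3.80 ± 0.16, adjusted p = 8.4e-13). These genes did not overlap between groups. The serine protease inhibitor TFPI2 rose by 2.51, while PLAU, the urokinase that SERPINB2 inhibits, was high in both groups, with 4641, 5589 and 6235 CPM in shHMGA1 samples and 4897, 5129 and 5858 CPM in RIS+shHMGA1 samples (−0.05 ± 0.12, adjusted p = 0.72). The gelatinase MMP2 and the inhibitors TIMP2 and TIMP3 were called lower. The collagenase cluster on chromosome 11 held 8 neighbouring genes that were all called higher, from MMP7 to DCUN1D5. WTAPP1, which overlaps MMP1, went from 824, 977 and 1479.6 CPM to 5198, 9602 and 12126 CPM. The strand setting of the counting is not given in the sources used here, so reads of WTAPP1 and MMP1 cannot be told apart. Searched as for chemokines, the AP-1 pattern TGANTCA was in 5 of 13 start regions of this list (38.5%) and in 4.60% of all.

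The 10 genes with the most counts in each sample took 6.40% ± 0.27 (SD, n = 6) of all counts in shHMGA1, between 6.02% and 6.74%, and 19.9% ± 2.71 in RIS+shHMGA1, between 15.9% and 22.4%. In RIS+shHMGA1, MMP1 and CXCL8 made up most of this. MMP1 held 7.40%, 7.43%, 7.73%, 7.60%, 5.53% and 4.83% of counts in replicates 1 to 6 of that group, against 0.920% to 1.54% in shHMGA1. Replicates 5 and 6 had the lowest shares. TPT1, a translation-associated protein, was also among the 10 genes with the highest mean in RIS+shHMGA1, and went from 2210.4, 2523 and 3988 CPM to 4774, 8439 and 11179 CPM (1.53 ± 0.21, adjusted p = 3.7e-06).

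Factors upstream of the SASP moved less. Of the 20 tested genes of NF-kappaB and C/EBP, 7 rose (35%) and 2 fell (10%), which became 6 and 6 under total-count scaling. Over all tested genes the shares were 21.6% and 22.9%. CEBPB, which drives IL6 and CXCL8, went from 42.6, 51.3 and 64.9 CPM to 76.0, 97.2 and 188 CPM (1.08 ± 0.18, adjusted p = 3.9e-05). The adaptor TRAF1 differed by 1.47, the atypical inhibitor NFKBIZ by 1.197, the adhesion molecule ICAM1 by 1.04 and DDIT3 by 1.87, all called. REL and NFKB2 were called lower. In prostaglandin synthesis PTGS2, the inducible cyclooxygenase, went from 102, 287 and 372 CPM to 1537, 1979 and 2223 CPM (2.91 ± 0.25, adjusted p = 1.2e-08) and PTGS1, the constitutive one, from 208, 216 and 293 CPM to 28.6, 40.5 and 42.9 CPM (−2.62 ± 0.13, adjusted p = 7.0e-12), so that each sample of the first was above and each sample of the second below the other group. ALOX5AP, needed for leukotriene synthesis, rose by 3.15. Of the growth factors 7 of 25 rose (28%) and 12 fell (48%). The share that rose was near the 21.6% over all tested genes, where 22.9% fell. The activin subunit INHBA rose by 1.46 and the glycoprotein hormone STC1 by 0.83, whereas PDGFB (−3.35), PDGFD (−3.14) and BMP4 (−2.72) were lower. Among genes of IGF signalling only IGFBP1 rose (2.05), of 9 tested, and 6 fell (66.7%, against 22.9% over all tested genes). Those that fell included IGFBP5 (from 1878, 2226 and 3257 CPM to 783, 870.4 and 1199 CPM), IGFBP7 (−1.61) and the receptor IGF1R (−2.05).

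RAS itself signals through ERK, whose activity raises its own phosphatases and Sprouty inhibitors. Of the 18 tested feedback genes 8 rose (44.4%) and 4 fell (22.2%), a balance that turned to 5 and 6 under total-count scaling. The share that fell was near the 22.9% over all tested genes. The phosphatases DUSP4 (2.57 ± 0.18), DUSP5 (1.95 ± 0.13) and DUSP6 (1.58 ± 0.11) rose, as did SPRY2 (1.53 ± 0.12), and SPRY1 fell (−1.92 ± 0.18). Of the 11 tested AP-1 and ATF factors 3 rose (27.3%) and 2 fell (18.2%), near the 21.6% and 22.9% over all tested genes. FOSB stood at 1.70, FOS at 0.96 and MAFF at 0.63. FOSL1, the partner of JUN in RAS-transformed cells, was among those that fell, at −0.94. JUN was not called (0.47 ± 0.12, adjusted p = 0.0022), and 1 factor rose and 4 fell with total-count scaling, while 2 rose and 3 fell without replicate 5. On the receptor side, NRG1 (1.95) and EREG (1.83), ligands of the ERBB family, rose with the feedback inhibitor ERRFI1 (2.13).

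Cell cycle genes fell almost without exception. Of 40 mitosis genes 39 fell and none rose, with a median of −3.06, and of 39 DNA replication genes 36 fell and none rose, with a median of −1.87, against −0.05 and 22.9% lower over all tested genes. MKI67, the proliferation antigen, went from 69.2, 87.7 and 95.2 CPM to 3.27, 4.09 and 5.43 CPM (−4.36 ± 0.13, adjusted p = 4.4e-14). TOP2A, which untangles chromosomes, went from 168, 223 and 276 CPM to 14.1, 20.04 and 25.3 CPM (−3.55 ± 0.16, adjusted p = 1.8e-12), and ASPM, a spindle pole protein, from 19.9, 32.4 and 40.8 CPM to 0.575, 0.949 and 3.16 CPM. MYBL2, the MYB factor of the mitotic programme, differed by −4.79 and the cytokinesis protein ANLN by −3.70. The 1 mitosis gene not called was BUB3 (0.01 ± 0.09, adjusted p = 0.91), which also takes part in mRNA splicing. Among replication genes, thymidine kinase TK1 went from 65.3, 74.2 and 84.0 CPM to 6.88, 7.03 and 7.78 CPM (−3.37 ± 0.10, adjusted p = 4.4e-14), the ribonucleotide reductase subunit RRM2 from 222, 279 and 308 CPM to 38.4, 45.6 and 57.1 CPM (−2.56 ± 0.12, adjusted p = 3.4e-12) and its partner RRM1 differed by −1.82. MCM10 (−3.33) and the licensing factor CDT1 (−2.79) fell further than the sliding clamp PCNA (−0.65 ± 0.12). Other than BUB3, the cell cycle genes named here were separate between the groups.

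Of the 20 G1/S regulators 14 fell (70%) and 2 rose (10%), against 22.9% and 21.6% over all tested genes. The E2F repressor E2F8 (−4.86) and the activator E2F2 (−4.76) fell most, along with the pocket protein RBL1 (−2.78). E2F8 and E2F2, at most 0.164 and 0.239 CPM in RIS+shHMGA1, passed the filter on low counts through shHMGA1 alone. Cyclin D1 (CCND1) was lower by less (−0.66 ± 0.12) and its kinase CDK4 was higher (0.67 ± 0.10). Of the 7 CDK inhibitors 3 rose and 3 fell (1 and 3 under total-count scaling). CDKN2A, the locus of p16 and ARF, went from 4.89, 5.73 and 9.43 CPM to 14.9, 21.5 and 26.04 CPM (1.69 ± 0.17, adjusted p = 1.2e-07), and CDKN1A, which makes p21, from 479.9, 878 and 1069 CPM to 1315, 1415 and 1688 CPM (0.87 ± 0.18, adjusted p = 2.8e-04). The counts do not separate p16 from ARF. CDKN2C, which makes p18, went the other way, from 18.1, 20.7 and 26.4 CPM to 0.598, 1.41 and 2.11 CPM (−3.91 ± 0.18, adjusted p = 4.7e-12), as did CDKN2D (−1.02) and CDKN1B, which makes p27 (−0.69). None of these 5 inhibitors overlapped between the groups.

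Of the p53 targets 4 of 20 rose, close to the 21.6% of all genes, and 1 fell. The balance did not hold: it was 2 and 4 under total-count scaling, 3 and 3 without replicate 6, with voom or with replicates 1 to 4 only, and 8 and 0 with replicates 5 and 6 only. The stress cytokine GDF15 went from 43.8, 52.8 and 89.1 CPM to 286, 379 and 849 CPM (3.03 ± 0.25, adjusted p = 9.0e-09), the nucleotide reductase subunit RRM2B differed by 1.16 and TP53I3 fell by 0.95 on the log2 scale.

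The start regions of mitosis and replication genes were searched for 3 patterns. The cell cycle homology region, TTTGAA, was in 22 of 33 mitosis regions (66.7%), 1 of 33 replication regions (3.03%) and 9.80% of all. The E2F pattern TTTNNCGC was in 2 of 33 mitosis regions (6.06%), 19 of 33 replication regions (57.6%) and 10.7% of all. CCAAT was in 23 mitosis regions (69.7%), 18 replication regions (54.5%) and 36.6% of all. Both strands were searched and the patterns do not contain each other. Among all genes called lower by more than 8-fold, 33.1% of 148 regions held TTTGAA, and among all genes called lower 12.7% of 2326. Mitosis genes such as MKI67 and ASPM are part of both sets, so these shares are not independent of the mitosis count. As examples with the TTTGAA match (or its reverse complement) in capitals, the regions of ASPM (chr1:197146620-197146919), the antigen MKI67 (chr10:128126374-128126673) and the cytokinesis protein PRC1 (chr15:90994486-90994785), all on the minus strand of GRCh38.p14, are printed 5′ to 3′ along the gene. The match begins 113 bases before the start in ASPM, 47 and 29 bases before it in MKI67 and 20 bases before it in PRC1.
ASPM: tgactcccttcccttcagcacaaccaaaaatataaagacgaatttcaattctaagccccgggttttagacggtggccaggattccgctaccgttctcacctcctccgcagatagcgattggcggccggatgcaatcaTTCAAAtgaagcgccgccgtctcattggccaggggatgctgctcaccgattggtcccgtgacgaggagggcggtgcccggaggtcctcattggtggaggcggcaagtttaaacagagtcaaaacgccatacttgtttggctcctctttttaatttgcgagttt
MKI67: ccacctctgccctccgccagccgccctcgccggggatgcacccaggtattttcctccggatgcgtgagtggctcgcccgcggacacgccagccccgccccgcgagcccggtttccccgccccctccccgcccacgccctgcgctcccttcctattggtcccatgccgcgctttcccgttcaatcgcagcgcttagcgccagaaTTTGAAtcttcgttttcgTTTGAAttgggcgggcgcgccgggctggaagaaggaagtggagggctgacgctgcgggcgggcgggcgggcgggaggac
PRC1: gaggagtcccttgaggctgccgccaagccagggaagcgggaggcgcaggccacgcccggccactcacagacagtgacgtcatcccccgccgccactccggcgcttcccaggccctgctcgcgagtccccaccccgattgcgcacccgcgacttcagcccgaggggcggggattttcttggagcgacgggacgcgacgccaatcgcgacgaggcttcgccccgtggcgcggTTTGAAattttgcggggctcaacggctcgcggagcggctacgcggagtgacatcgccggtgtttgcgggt

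Of the 29 chromatin genes tied to senescence 18 fell (62.1%) and 1 rose (3.45%), against 22.9% and 21.6% over all tested genes. LMNB1, the B-type lamin lost from senescent nuclei, went from 24.2, 29.8 and 40.2 CPM to 1.23, 2.87 and 3.45 CPM (−3.62 ± 0.20, adjusted p = 4.4e-11), with no overlap. The histone chaperone ASF1B (−3.06), the maintenance methylation factor UHRF1 (−2.99) and the A-type lamin LMNA (−1.31) were lower. MACROH2A1, the histone variant of heterochromatin foci, was not called (0.33 ± 0.10, adjusted p = 0.0075).

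The extracellular matrix fell as a block. Of 22 collagens 19 fell (median −2.24) and 1, COL10A1, rose. COL1A1, the main chain of type I collagen, went from 5152, 7606 and 8532 CPM to 403, 491 and 765 CPM (−3.70 ± 0.19, adjusted p = 1.4e-11) and COL3A1 from 749, 931 and 1132 CPM to 19.5, 25.2 and 82.3 CPM (−4.45 ± 0.35, adjusted p = 4.1e-09). COL14A1 differed by −5.04, while COL6A1 (−0.57) and COL6A2 (−0.17) were not called. COL14A1, at most 0.138 CPM in RIS+shHMGA1, passed the filter on low counts through shHMGA1 alone. Of 32 matrix glycoproteins 26 fell and 1 rose (median −1.57). Elastin (ELN) differed by −4.70, the link protein HAPLN1 by −4.06 and fibulin-3 (EFEMP1) by −4.01. SPARC, a collagen-binding glycoprotein, went from 3609.6, 3886 and 4502 CPM to 808, 1017 and 1201 CPM (−1.98 ± 0.12, adjusted p = 1.1e-10), and no sample overlapped.

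Contractile genes followed the same direction: 21 of 26 fell and none rose (median −1.40). ACTA2, smooth muscle actin, went from 205, 333 and 459.6 CPM to 23.3, 27.9 and 55.5 CPM (−3.32 ± 0.22, adjusted p = 4.7e-10) and MYOCD, the coactivator of serum response factor, from 11.2, 12.7 and 17.3 CPM to 0.359, 0.515 and 0.747 CPM. ACTB, a housekeeping actin, was lower by 0.60 on the log2 scale with overlapping groups (3795, 4955 and 5422 CPM to 2882, 3022 and 3859 CPM), while GAPDH went from 3132, 3537 and 4052 CPM to 3115, 3689 and 3957 CPM (0.04 ± 0.11, adjusted p = 0.78) with overlapping groups. The CArG box, to which serum response factor binds, was in 7 of 21 start regions of this list (33.3%) and in 1.07% of all. The list was drawn up as contractile genes and targets of that factor, so a high share may come from how it was made. In TGF-beta signalling 14 of 24 fell (58.3%) and 1 rose (4.17%), against 22.9% and 21.6% over all tested genes. The inhibitors of differentiation ID3 (−2.83) and ID2 (−2.37) and the ligand TGFB2 (−2.43) were among the largest falls, and the receptor TGFBR2 fell less (−0.87). Of 13 integrins 10 fell (76.9%, against 22.9% over all tested genes) and none rose. ITGA8 stood at −3.17 and ITGA4 at −2.23, and the shared chain ITGB1 was not called (−0.16 ± 0.11, adjusted p = 0.23).

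Marks of tissue identity fell too. Of the lung mesenchyme factors 6 of 9 fell, among them TCF21 (−2.27), TBX5 (−2.18) and FOXF1 (−0.67). Their summed level was 563 to 648 CPM in shHMGA1 and 289 to 452 CPM in RIS+shHMGA1. Of the fibroblast markers 9 of 15 fell and 2 rose, with summed levels of 15507 to 21108 CPM in shHMGA1 and 5597 to 7340.2 CPM in RIS+shHMGA1. Pericyte and muscle markers fell in 6 of 7 tested, from 378 to 475 CPM to between 139 and 163 CPM. Markers of other cells passed the filter on low counts less often. Of 13 epithelial markers 4 were tested and 2 fell, with a sum of 39.2 to 47.5 CPM against 41.6 to 47.7 CPM. Of 10 endothelial markers 5 were tested, with CLDN5 (5.36), TIE1 (4.11) and ROBO4 (0.97) higher and TEK (−2.44) lower, and a summed level of 73.9 to 127 CPM against 32.7 to 43.9 CPM. Of 10 leukocyte markers 3 were tested, LAPTM5 (4.43) and CSF1R (0.95) were higher, and the sum was 42.5 to 81.9 CPM against 57.9 to 77.2 CPM. In shHMGA1, CLDN5, TIE1 and LAPTM5 were at most 0.176, 0.418 and 0.327 CPM. They passed the filter on low counts through RIS+shHMGA1 alone, so that a call in the other direction was not possible. CLDN5, a tight junction protein, and TIE1 are known from endothelium, and LAPTM5, a lysosomal protein, from leukocytes. Of the genes that define those types, PECAM1 was at most 0.353 CPM in shHMGA1 and between 0.296 and 1.196 CPM in RIS+shHMGA1, VWF at most 0.961 CPM and CD14 at most 1.1998 CPM in any of the 12 samples. The part of other cells in these results was not tested.

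Notch signalling is known to change over the course of RIS. Of the 14 tested genes of the pathway 2 rose (14.3%) and 4 fell (28.6%), near the 21.6% and 22.9% over all tested genes. The ligand DLL4 went from 55.4, 72.6 and 84.8 CPM to 7.72, 12.1 and 23.7 CPM (−2.32 ± 0.20, adjusted p = 1.3e-08) and the receptor NOTCH3, typical of mural cells, from 32.4, 41.1 and 56.2 CPM to 6.91, 9.32 and 11.2 CPM (−2.17 ± 0.14, adjusted p = 2.2e-10). NOTCH2 (−1.06) and the coactivator MAML1 (−1.02) were also lower. The target HEY1 went the other way, from 2.24, 3.27 and 7.13 CPM to 10.3, 12.2 and 14.03 CPM (1.48 ± 0.25, adjusted p = 3.5e-05), as did the ligand DLL3 (1.80). The target HES1 (−0.76 ± 0.26, adjusted p = 0.014) and the ligand JAG1 (0.73 ± 0.26, adjusted p = 0.018) were not called, and neither NOTCH1 (−0.19 ± 0.15, adjusted p = 0.26) nor the DNA-binding factor RBPJ (0.42 ± 0.11, adjusted p = 0.0023) was. HEYL, at most 0.962 CPM in shHMGA1 and 0.239 CPM in RIS+shHMGA1, and the ligand JAG2 did not pass the filter on low counts.

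The share of genes called varied with transcript length. Over 11690 of the protein-coding genes tested, split into quintiles by the length of the canonical transcript, the shortest quintile (276 to 1854 bases) had a median of 0.46 with 42.9% of genes higher and 9.67% lower, and the longest (5890 to 109224 bases) a median of −0.37 with 10.1% higher and 36.3% lower. The 6 same-numbered pairs gave medians of 0.17 to 0.64 in the shortest quintile and of −0.57 to −0.07 in the longest, the smallest of both in number 5. In the vector cells the medians were 0.14 and −0.14, and 0.32 and −0.23 without replicate numbers 2 and 4, which hold a growing and a RIS sample that stood apart. Lists differed in length: the median was 691 bases for complex I subunits, 1174.5 for chemokines and 6060.5 for collagens. The part of length in the results was not tested.

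The short genes of the ribosome and of respiration were among those that rose. Of 79 tested cytosolic ribosomal protein genes, a group looked at after its values had been seen, 72 were higher and 1, RPL39L, lower, with a median of 1.22 and a median length of 869 bases. RPS14 rose by 1.81 and RPS6, the target of S6 kinase, by 1.33. Many of these genes have near-identical copies, so that their counts are uncertain. Of 76 mitochondrial ribosomal protein genes 57 were higher and none lower (median 0.82, median length 1221 bases). Complex I of the respiratory chain had 20 of 30 higher and none lower (median 0.75), or 11 higher and 1 lower under total-count scaling, and NDUFB9 went from 111, 134 and 207 CPM to 335, 647 and 928 CPM (2.03 ± 0.22, adjusted p = 2.9e-07). Of 28 ribosome biogenesis genes 9 rose and 1 fell (6 and 6 under total-count scaling), with NOP10 at 1.76 and the nucleolar NPM1 at 1.30.

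Lysosome, autophagy and stress lists rose more often than they fell under TMM scaling, and each turned under total-count scaling. Their counts stand beside 21.6% higher and 22.9% lower over all genes, and the shares higher for glycolysis (17.4%) and for ATF4 and the unfolded protein response (26.9%) were close to that. For lysosome genes the counts were 11 and 4 of 33 (5 and 9 with total counts), for autophagy 10 and 4 of 22 (3 and 6), for cholesterol synthesis 8 and 3 of 23 (4 and 9), for glycolysis 4 and 2 of 23 (1 and 4), for ATF4 and the unfolded protein response 7 and 3 of 26 (4 and 9) and for NRF2 targets with AKR1C genes 8 and 2 of 20 (5 and 6). Single members stood out. Cathepsin S (CTSS), an elastolytic protease, went from 73.3, 112 and 164 CPM to 724, 1123 and 1262 CPM (3.20 ± 0.20, adjusted p = 2.0e-10), and the beta-glucuronidase GUSB was lower by 1.24 on the log2 scale. The autophagy receptor SQSTM1 was higher (1.18) and the lysosomal regulators TFEB (−1.58) and MITF (−1.56) lower. The glucose transporter SLC2A1 was lower (−1.41), PGK1 was higher (1.04), and the mTOR inhibitor DDIT4 (1.80) rose while the serine synthesis enzyme PHGDH (−1.30) fell. SOD2, the mitochondrial superoxide dismutase, went from 208, 238 and 282 CPM to 839, 909 and 1007 CPM (1.90 ± 0.10, adjusted p = 2.0e-11), and the haem oxygenase HMOX1 (1.92) and AKR1C1 (1.81) rose.

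Interferon-stimulated genes and complement were lower. Of 25 interferon-stimulated genes 11 fell (44%) and 1 rose (4%), against 22.9% and 21.6% over all tested genes. Those that fell included GBP2 (−2.74), SAMD9 (−2.54) and the RNA sensor OAS3 (−2.36). Of 8 complement genes 5 fell and none rose, with the proteases C1R at −3.18 and C1S at −1.99 and the central component C3 at −1.56. In MHC class I presentation 6 of 15 genes were tested, and 1 rose and 1 fell (16.7% each, against 21.6% higher and 22.9% lower over all tested genes). TAP1 and PSMB8 were listed at 0 in all 12 samples, so that no fold is given. B2M, the light chain, rose by 1.02 with overlapping groups. Of the 13 BCL2 family genes 2 rose and 3 fell (3 and 2 with RLE scaling, 1 and 6 with total counts). With TMM scaling the shares were 15.4% and 23.1%, near the 21.6% and 22.9% over all tested genes. BCL2A1, an antiapoptotic NF-kappaB target, went from 8.09, 11.4 and 25.6 CPM to 421, 552 and 688 CPM (5.27 ± 0.26, adjusted p = 8.3e-12), and BCL2 fell by 2.27 on the log2 scale.

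Replicates 5 and 6 answered less strongly over all tested genes. On the mean of the 6 same-numbered differences, those of numbers 5 and 6 had slopes of 0.88 and 0.93, against 0.98 to 1.11 for the others. Lists differed in this. The median difference of collagens was −1.66 and −1.97 in numbers 5 and 6, against −2.67 to −2.45 in the others. For DNA replication genes it was larger in size, at −2.25 and −2.10 against −1.80 to −1.56. For p53 targets it was 0.52 and 0.54, against −0.22 to 0.13. MMP10 and IL33 are shown as genes picked for the large spread of their same-numbered differences. MMP10, a stromelysin, was at 14.6, 23.0, 22.2, 29.7, 77.1 and 80.2 CPM in shHMGA1 replicates 1 to 6 and at 512, 526, 694, 684, 279 and 237 CPM in RIS+shHMGA1, giving 3.56 ± 0.41 (adjusted p = 4.4e-07). Its shHMGA1 values were highest and its RIS+shHMGA1 values lowest in those 2 replicates. IL33 was at 0, 0.0818, 0.0857, 0.353, 0.716 and 1.33 CPM in shHMGA1 replicates 1 to 6 and at 12.9, 12.8, 21.3, 23.7, 11.7 and 8.55 CPM in RIS+shHMGA1, again with the highest growing and the lowest RIS values in replicates 5 and 6. With the pairs 1 to 4 only, 6234 genes were called, and with 5 and 6 only, 3971 genes. The second set held 63.8% of the 5762 genes called in the full set, and 16 of those 5762 changed sign in it. The cause was not tested.

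Set beside the vector cells, most genes called in the hairpin cells had the same sign. Of the 5762 called genes 5678 did so, and across 13356 genes the 2 sets of log2 fold changes, which share no sample, had r = 0.908 and a slope of 0.48, over genes that are not independent. A growing and a RIS vector sample (replicates 4 and 2) stood apart, and without numbers 2 and 4 in every group r was 0.954 and the slope 0.91. The interaction of RAS and hairpin, tested in all 24 samples with edgeR, called 0 of 13356 genes (0%) at these thresholds, with 1371 at an unadjusted p under 0.05. Without numbers 2 and 4 the same test called 1 of 13403 genes, with 364 at an unadjusted p under 0.05. In all 24 samples DESeq2 called 5 and voom with sample weights 7. RGS4, a regulator of G protein signalling, was called by DESeq2 and was at 14.7, 29.0 and 33.6 CPM in growing, 10.7, 15.5 and 18.01 CPM in shHMGA1, 14.9, 20.8 and 22.6 CPM in RIS and 24.2, 27.7 and 31.0 CPM in RIS+shHMGA1. Every RIS+shHMGA1 sample was above every RIS sample, while every shHMGA1 sample was below every growing sample other than replicate 4, the growing sample that stood apart. A count of 0 does not show that the hairpin left the response unchanged.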

How the data were processed

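Gene counts of 24 RNA-seq samples were analysed, 12 of them with the hairpin. Per the study's methods and the labels, the authors mapped reads of stranded mRNA libraries to hg19 with STAR 2.5.0b, filtered low mapping quality and adapters with cutadapt 1.10.0 and counted reads per gene with Rsubread. The deposited values are raw counts per Entrez gene, with no normalization. The annotation, the strand setting and the Rsubread version are not given in the sources used here. Symbols were matched for 23696 of 25702 identifiers, and the rest held 1.91% of the counts. The 12 hairpin samples held 8698070 to 15648595 counts each, and the deepest of all 24 samples 23103424, and their number limits the precision of low genes.

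The counts were fitted in R 4.3.3 with edgeR 4.0.16 (TMM scaling, filterByExpr, quasi-likelihood test, Benjamini-Hochberg adjustment) over the 12 hairpin samples without a replicate block, with the study's thresholds, an adjusted p of 0.01 and a log2 fold change of 0.58. The interaction was fitted over all 24 samples. The labels call the 6 samples of a group biological replicates and do not say how the cultures were separated, so p-values measure the spread between these samples. DESeq2 1.42.0 and limma 3.58.1 gave alternatives, with other scalings, filters, thresholds and sets of replicates. The scripts were tested on simulated data. Genes are named by rule: the 12 largest changes each way, in each of 41 lists the 3 largest and 3 most abundant members (all of them where 4 or fewer were tested), the 10 most abundant genes of each group, 5 genes each way that were near absent in 1 group, the 5 most variable between pairs, genes the study names and interaction genes. Other genes are named to say which members of a list were called, and were chosen after their values were seen. Members and lists were chosen with earlier results of these data known.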

Additional observations from a re-analysis of the deposited data

Results flagged for a closer look

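In each group of 6 samples, Dixon's ratio (the gap of the extreme sample to its neighbour over the group's range, against Dixon's 95% critical value) was computed for the genes named in the report. Of 340 tests 19 were above it, where chance gives about 1 in 20. Most of them, 13, were the highest sample of RIS+shHMGA1 and belonged to replicates 5 and 6, the samples that also stood apart on the second principal component.

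In RIS+shHMGA1 replicate 5 the Notch genes MAML1 (ratio 0.881, 20.9 CPM with the next sample at 14.9 CPM), NOTCH2 (0.817, 102 CPM against 57.4 to 65.5 CPM in the other 5 samples) and NOTCH1 (0.668, 21.8 CPM with the next at 14.6) were highest. In the same sample the ligands NRG1 (0.810, 408 CPM against 284 to 308) and EREG (0.658, 619 CPM against 443 to 503), the integrin ITGA8 (0.728, 3.36 CPM against 1.12 to 1.73) and the spindle gene ASPM (0.664, 3.16 CPM against 0.575 to 1.44) were highest. In RIS+shHMGA1 replicate 6 the highest genes were ACTB (0.773), TBX5 (0.730), ELN (0.708), IGFBP7 (0.661), CEBPB (0.645, 188 CPM against 76.0 to 116) and ACTA2 (0.634, 55.5 CPM against 23.3 to 35.0). ACTB, TBX5, ELN, IGFBP7 and ACTA2 were called lower in the comparison, and this sample was in each the one nearest to shHMGA1.

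In shHMGA1 replicate 4, B2M (0.802), TPT1 (0.725) and CXCL8 (0.665) were highest and PDGFB (0.689, 8.03 CPM against 11.8 to 13.5) was lowest, so that for all 4 this sample was the one nearest to RIS+shHMGA1. The remaining ones were ASF1B in replicate 5 (0.646, 33.0 CPM against 21.5 to 25.6 CPM) and ELOVL2 in replicate 3 (0.680, lowest, 2.66 CPM against 4.50 to 5.37). The causes were not tested.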

How the results depend on the processing

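No called gene of the main comparison changed sign under another scaling, filter, tool or with 1 replicate number left out. The count of called genes was 3346 with glmTreat, a stricter test that the change exceeds the fold used. It was 5743 with RLE scaling, 5764 with DESeq2, 6454 of 19503 with no filter, 6363 with voom and 5422 to 5997 when 1 replicate number was left out. HMGA1 was called with voom and sample weights (0.87), with a replicate block (0.62, adjusted p = 0.000164) and with only replicates 1 to 4 (0.80), and was 0.63 to 0.75 when 1 number was left out, 0.28 with only replicates 5 and 6 and 0.26 with total counts. The interaction called 5 genes with DESeq2, 7 with voom, 2 at an adjusted p of 0.05, 1 without numbers 2 and 4 and, over single numbers left out, 0 to 1, the 1 without replicate 4.

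The labels do not say whether same-numbered samples share a culture. The deviations of same-numbered samples from their group means correlated by −0.04 to 0.36, with number 1 below 0. The mean was 0.17, against −0.03 for samples of different numbers, and 2 of the 6 numbers correlated best with their own. The 2 numbers lowest for HMGA1 and on the second principal component were the same in both groups. These values do not settle whether the samples are paired, and the main fit used no block. With the replicate block 5819 genes were called, HMGA1 among them, and 0 for the interaction. Of the named genes' values under all alternatives, 4458 stayed on the same side of the thresholds, 49 gained and 89 lost the call. The 195 called ones kept their sign wherever they were tested, whereas uncalled genes near 0 could change sign. Genes near 1 count per sample have no precision at these depths.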

Other observations

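Genes of the outer skin rose together in these lung fibroblasts. All 5 tested LCE genes were called higher in RIS+shHMGA1, and their summed level went from between 0.358 and 0.943 CPM to between 39.1 and 65.7 CPM. They passed the filter on low counts through RIS+shHMGA1 alone. A call in the other direction was therefore not possible, and the count of 5 is no result of its own. LCE2D had no count in any shHMGA1 sample and was at least 65.7-fold higher, against a floor of 3 counts over the group. The 2 tested IL36 genes, which encode signals of the skin, went from a summed 0.0699 to 0.771 CPM to between 15.3 and 95.1 CPM. These IL36 genes likewise passed the filter through RIS+shHMGA1 alone. The LCE genes lie next to each other on chromosome 1 in the RefSeq order.

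Other neighbouring genes moved together. All 22 tested PCDHG genes of chromosome 5 were lower, by 0.83 to 0.93 in size. They share their last exons, so that their counts are uncertain. Of 13 tested SNORD genes 12 were higher (median 1.40), among them 6 hosted in GAS5.

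The 15 mitochondrially encoded genes tested, a group chosen after values were seen, were all positive in the hairpin cells, with a median of 0.53. Of them 5 were called, where 44.5% of all tested genes were. In the vector cells 2 of 15 were positive (median −0.18, or −0.34 without numbers 2 and 4). The 15 genes are not independent observations. None passed the interaction test with edgeR. DESeq2 called RNR2, ND1 and ND3. ND1 differed by 0.96 in the hairpin cells and by −0.00 in the vector cells.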
